A study of Homo sapiens with 16 samples.

Results

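The inflammatory cytokines and chemokines described here are 10 genes, taken by symbol from the 25370 genes of the count table: IL6, IL1B, IL1A, CXCL1, CXCL2, CXCL3, CCL2, LIF, IL11 and CSF2. RNA was sequenced from HMC3 cells, a human cell line sold as microglia, in 16 libraries that make up 8 pairs. A pair received vehicle, estradiol (E2, 0.1 nM), the drug ketamine (400 nM), its metabolite (2R,6R)-HNK (400 nM) or the metabolite (2S,6S)-HNK (400 nM), and the remaining 3 pairs received E2 and a drug or metabolite at the same doses. The HNKs are hydroxynorketamines, metabolites of ketamine that carry a hydroxyl group, and the (2R,6R) and (2S,6S) forms are mirror images of each other. All cells, the vehicle cells included, were kept without serum before the 24 h treatment and without serum or phenol red during it, and no inflammatory stimulus is named in the protocols. In the plots the HNKs are written without brackets, and E2+ marks a drug given with E2. Nothing in the labels ties the libraries of a pair to separate cultures, so p-values measure only the spread between these libraries, which may be technical.

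These genes encode secreted proteins. IL1A and IL1B start inflammatory signalling through the IL-1 receptor, and IL6, the neutrophil attractants CXCL1, CXCL2 and CXCL3 and the monocyte attractant CCL2 are classic NF-kB targets downstream of it. IL6, LIF and IL11 belong to one family that signals through the shared receptor chain gp130 (IL6ST) to the transcription factor STAT3, while CSF2 (GM-CSF) drives the growth of myeloid cells. In the brain, microglia are a main source of IL1B and IL6 during inflammation.

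The sequences just before the start sites show how the members differ in the control motifs that they carry. For IL11 and IL6 the 250 bases before the start of the canonical transcript are printed 5′ to 3′ on the gene's own strand, from the GRCh37 genome, with the motif that was found in capitals. In IL11 (chr19:55881832-55882081, minus strand) the capitals mark the AP-1 letters TGANTCA, and in IL6 (chr7:22766569-22766818, plus strand) the NF-kB letters GGG and TTTCC with any 2 bases between them.
IL11: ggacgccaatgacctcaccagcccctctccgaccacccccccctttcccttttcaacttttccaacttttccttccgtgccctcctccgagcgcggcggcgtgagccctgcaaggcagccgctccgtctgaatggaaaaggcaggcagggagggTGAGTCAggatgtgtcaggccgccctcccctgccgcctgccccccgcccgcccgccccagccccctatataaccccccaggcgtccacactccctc
IL6: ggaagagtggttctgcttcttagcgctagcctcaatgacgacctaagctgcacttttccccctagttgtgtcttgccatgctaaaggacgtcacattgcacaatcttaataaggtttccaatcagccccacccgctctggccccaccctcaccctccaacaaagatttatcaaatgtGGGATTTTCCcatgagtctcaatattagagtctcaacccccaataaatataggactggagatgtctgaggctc

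The chemokines CXCL1, CXCL2 and CXCL3 lie close together on chromosome 4, and their last 100 bases before the start are shown because all 3 windows hold the same NF-kB letters, in capitals, at nearly the same distance. The windows are chr4:74735010-74735109 on the plus strand for CXCL1, chr4:74964913-74965012 on the minus strand for CXCL2 and chr4:74904407-74904506 on the minus strand for CXCL3.
CXCL1: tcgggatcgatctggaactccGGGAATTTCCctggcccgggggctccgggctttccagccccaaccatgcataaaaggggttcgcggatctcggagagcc
CXCL2: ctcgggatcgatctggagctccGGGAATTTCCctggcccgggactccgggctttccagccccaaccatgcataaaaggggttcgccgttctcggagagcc
CXCL3: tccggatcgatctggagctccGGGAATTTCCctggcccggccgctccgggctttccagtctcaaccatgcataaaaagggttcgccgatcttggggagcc

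Both strands were searched in 250 bases before the start of 21353 genes. The NF-kB letters were in 1.76% of these windows and in those of 4 members, where the match began 73 bases before the start in IL6, 79 in CXCL1 and CXCL3 and 78 in CXCL2. The STAT letters TTCNNNGAA were in 5.82% of the windows, those of IL1B, CCL2 and CSF2 included. The AP-1 letters were in 4.93% of the windows and in IL11 and IL1A, and the CRE letters TGACGTCA were in 2.29% of the windows and in none of the 9 members described. A match describes these letters only and says nothing of whether a factor was bound.

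The library totals ran from 55300614 to 81646165 counts, and 16004 genes passed the filter on low counts. Among counts of 1 to 9, 65.8% were even numbers, against 49.9% of counts of 500 or more. The microglial identity of the line had little support in its RNA: AIF1, TMEM119, P2RY12, CX3CR1, ITGAM, PTPRC, TYROBP, SALL1 and SPI1 had 0 to 7 counts in a library, CSF1R and TREM2 had 24 to 89 (means of 0.728 and 0.723 CPM), and CD68, a lysosomal protein of many cell types, was the only marker of 12 with a mean above 1 CPM, the count scaled to library size (20.5 CPM). The 12 markers summed to 18.9 to 25 CPM. Of 10 mesenchymal markers, 8 were above 1 CPM, led by COL1A1 with 4550 CPM. COL3A1 and DCN had at most 6 and 12 counts in a library, and PDGFRA, ACTA2 and S100A4 had means of only 1.97, 2.13 and 1.8 CPM. The sum of the 10 ran from 5700 to 7830 CPM: it was highest in E2 with ketamine and lowest in E2 with (2S,6S)-HNK. Markers of astrocytes (5 genes) summed to 5.88 to 11 CPM, of neurons to 2.07 to 4.15 and of endothelial cells to 1.89 to 4.25. In whole-culture RNA, fewer cells of a type and less RNA per cell cannot be told apart.

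The counts also moved with base composition. In every treatment, genes with GC-rich exons had higher log2 fold changes against vehicle than AT-rich ones, with Spearman correlations of 0.444 to 0.771 over 15358 genes of the same libraries in the 7 treatments. LIF and IL11 are GC-rich, at 57.1% and 57.7% against a median of 48.7% over the genes tested, while IL6 stands at 45.8%. All comparisons were therefore also run after each library was corrected for GC content and exon length, and these values, called GC-corrected, stand beside many of the results. The part of base composition in each result beyond that was not tested.

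LIF and IL11 made up nearly all of the cytokine RNA, with 98.6% of the counts of the 10 members. IL11 had a mean of 24.9 CPM per kilobase of exon and LIF 16.5. IL6 followed at 0.189, CCL2 at 0.176, CXCL1 at 0.143 and CXCL2 at 0.118 CPM per kilobase. CXCL3 at 0.0556, IL1B at 0.0552, IL1A at 0.0476 and CSF2 at 0.0191 were lowest on this scale. CSF2 did not pass the filter: it had 15 counts in all and 0 counts in 9 of 16 libraries, and the highest was 4 counts in (2S,6S)-HNK replicate 1. A library with 0 counts allows up to 3, which is 0.035 CPM in the largest and 0.0547 CPM in the smallest library. This limit covers counting error only and takes each count as 1 fragment, which was not tested. The other 9 members were tested, but IL1B, IL1A and CXCL3 had 10 or more counts in only 7, 4 and 7 libraries.

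LIF was raised by E2, by (2R,6R)-HNK and by E2 with ketamine to about the same level. LIF, leukemia inhibitory factor, acts on cells that carry LIFR and gp130 and is encoded on chromosome 22 (chr22:30636442-30642748, minus strand, 3 exons). Its levels were 51.2 and 50.6 CPM in vehicle, 85.0 and 82.6 in E2, 60.7 and 62.5 in ketamine, 84.2 and 86.1 in (2R,6R)-HNK and 53.1 and 51.7 in (2S,6S)-HNK. With E2 they were 87.8 and 86.8 CPM in ketamine, 51.8 and 48.7 in (2R,6R)-HNK and 41.3 and 40.6 in (2S,6S)-HNK. The vehicle libraries overlapped only those of E2 with (2R,6R)-HNK, and the E2 libraries only those of (2R,6R)-HNK alone. The log2 fold change against vehicle was 0.72 (SE 0.04, adjusted p = 2.22e-21) in E2, 0.74 (SE 0.04, adjusted p = 2.63e-22) in (2R,6R)-HNK and 0.78 (SE 0.04, adjusted p = 2.03e-23) in E2 with ketamine, by the quasi-likelihood test of edgeR, where p is adjusted by Benjamini-Hochberg over all genes. Ketamine alone gave 0.28 (adjusted p = 4.00e-08) and E2 with (2S,6S)-HNK gave a fall, at -0.31 (adjusted p = 5.91e-09). The values for (2S,6S)-HNK alone, 0.04 (adjusted p = 0.378), and for E2 with (2R,6R)-HNK, -0.02 (adjusted p = 0.735), did not pass the test. The summed mesenchymal markers, mostly COL1A1 RNA and not GC-corrected, were also highest in E2, (2R,6R)-HNK and E2 with ketamine. They stood at 7400 to 7830 CPM there, against 5700 to 6830 in the other 5 conditions. Their part in the result was not tested. GC-corrected, the 3 large rises were 0.41, 0.36 and 0.27 and kept their call, that of ketamine was 0.00 (adjusted p = 0.999), and (2S,6S)-HNK and E2 with (2R,6R)-HNK stood below vehicle at -0.35 and -0.44 (adjusted p = 5.37e-12 and 4.95e-16).

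IL11 was lowered by (2S,6S)-HNK and by both HNKs with E2. IL11, which signals through IL11RA and gp130 and is known for its role in fibrosis and bone turnover, lies on chromosome 19 (chr19:55875750-55881831, minus strand, 5 exons). Its levels were 73.4 and 69.8 CPM in vehicle, 83.2 and 84.5 in E2, 88.3 and 81.8 in ketamine, 74.6 and 76.5 in (2R,6R)-HNK and 47.7 and 51.3 in (2S,6S)-HNK. With E2 they were 78.2 and 81.3 CPM in ketamine, 43.0 and 45.5 in (2R,6R)-HNK and 44.2 and 43.4 in (2S,6S)-HNK. The 6 libraries of the 3 low conditions all lay at 51.3 CPM or less, and the other 10 libraries at 69.8 CPM or more. The astrocyte markers were highest in the same 3 conditions, at 9.43 to 11 CPM against 5.88 to 8.32 in the other 5, with ALDH1L1 (mean 5.04 CPM) and SLC1A3 (2.75 CPM) as most of the sum, AQP4 at 0 counts in every library and GFAP at 0.395 CPM, and their part in the result was not tested. The falls were -0.53 (SE 0.04, adjusted p = 1.69e-15), -0.69 (SE 0.04, adjusted p = 6.25e-20) and -0.71 (SE 0.04, adjusted p = 8.80e-20) on the log2 scale, in the edgeR test. GC-corrected they were larger, at -0.91, -1.10 and -0.91. The smaller rises in E2 (0.23, adjusted p = 4.35e-06), ketamine (0.25, adjusted p = 7.01e-07) and E2 with ketamine (0.16, adjusted p = 0.000909) turned to -0.09, -0.02 and -0.38 after GC correction, and (2R,6R)-HNK, at 0.08 (adjusted p = 0.103), turned to -0.33 (adjusted p = 1.60e-11). The sign of IL11 in these 4 treatments therefore depends on the correction. In E2 and ketamine the corrected values were not called in either direction.

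**Figure D1:**
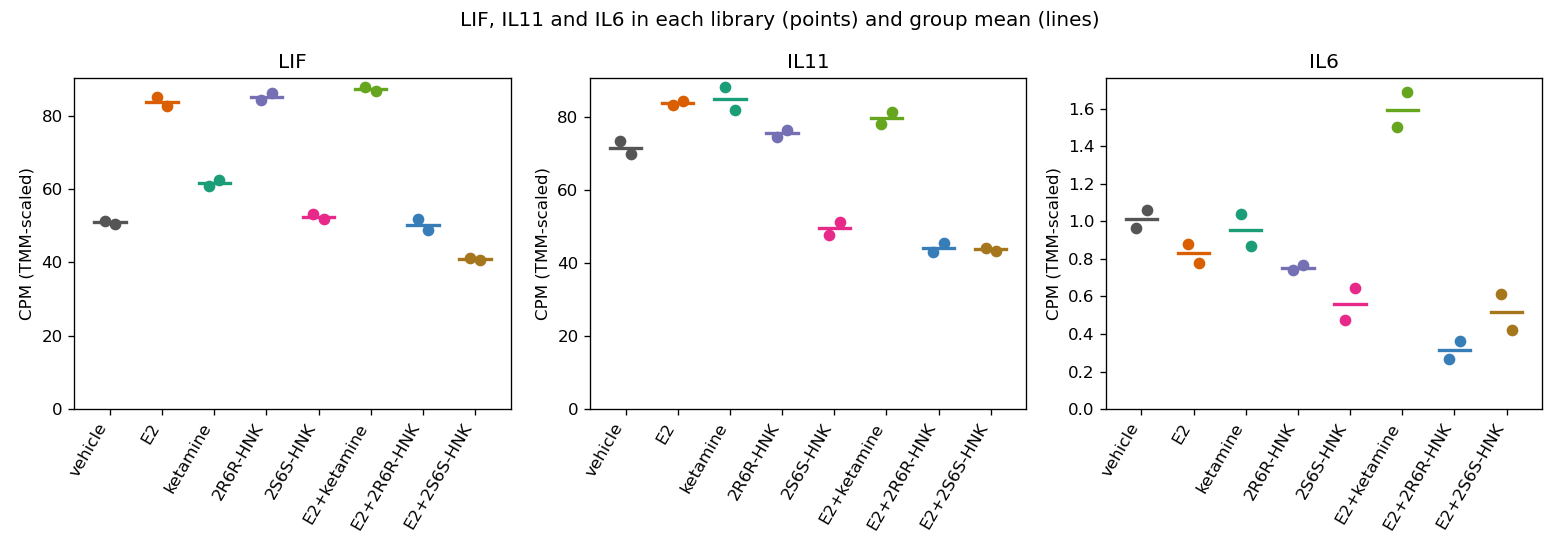
Levels of LIF, IL11 and IL6 in CPM, scaled by TMM (y axis, from 0), in each of the 16 libraries (points) by condition (x axis), with the mean of each condition as a line. LIF is at 82.6 CPM or more in E2, 2R6R-HNK and E2+ketamine, IL11 is at 51.3 CPM or less in 2S6S-HNK and in both HNKs with E2, and IL6 is highest in E2+ketamine.

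The relation of LIF to IL11 separated the vehicle and ketamine libraries from the rest. This ratio of counts was chosen after the values were seen and was not tested. It was 0.697 and 0.724 in vehicle and 0.687 and 0.764 in ketamine. In the other 6 conditions it ran from 0.936 in E2 with (2S,6S)-HNK to 1.20 in E2 with (2R,6R)-HNK, with no overlap with these 4 libraries. The exons of LIF and IL11 hold 57.1% and 57.7% GC and are 3871 and 2678 bp long. The part of GC content and length in the ratio was not tested.

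IL6 was highest in E2 with ketamine and lowest in E2 with (2R,6R)-HNK. IL6, the main inducer of the acute phase response, is encoded on chromosome 7 (chr7:22765503-22771621, plus strand, 5 exons). Its counts were 59 and 63 in vehicle, 55 and 46 in E2, 89 and 72 in ketamine, 57 and 44 in (2R,6R)-HNK and 26 and 38 in (2S,6S)-HNK. With E2 they were 89 and 99 in ketamine, 20 and 26 in (2R,6R)-HNK and 50 and 27 in (2S,6S)-HNK. Scaled to library size, the means were 1.01 ± 0.0657 CPM (SD, n = 2) in vehicle, 1.60 ± 0.131 in E2 with ketamine and 0.316 ± 0.067 in E2 with (2R,6R)-HNK, and the libraries of these 3 conditions did not overlap. Against vehicle, IL6 fell by 1.68 (SE 0.33, adjusted p = 1.21e-05) on the log2 scale in E2 with (2R,6R)-HNK, by edgeR's test. This fall was -1.5 GC-corrected and ran from -1.91 to -1.47 when single libraries were left out. It fell by 0.95 (SE 0.30, adjusted p = 0.0064) in E2 with (2S,6S)-HNK and by 0.85 (SE 0.31, adjusted p = 0.0152) in (2S,6S)-HNK alone, and rose by 0.66 (SE 0.28, adjusted p = 0.0305) in E2 with ketamine.

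These smaller IL6 calls rested on single libraries. The call in (2S,6S)-HNK was lost without vehicle replicate 2 (adjusted p = 0.066) or (2S,6S)-HNK replicate 1 (adjusted p = 0.124) and after GC correction (-0.67, adjusted p = 0.0673). The call in E2 with (2S,6S)-HNK was lost without replicate 2 of that condition (adjusted p = 0.085). That in E2 with ketamine was lost without either vehicle library (adjusted p = 0.123 and 0.0606) or without replicate 2 of E2 with ketamine (adjusted p = 0.133), but was 0.94 (adjusted p = 0.00353) GC-corrected, all from edgeR. IL6 stood at -0.28 in E2, -0.08 in ketamine and -0.42 in (2R,6R)-HNK, with adjusted p of 0.426, 0.821 and 0.207. Exons of IL6 overlap 428 bases of the opposite-strand gene IL6-AS1 and 46 of STEAP1B, and those of LIF overlap 86 bases of LIF-AS1 and 83 of LIF-AS2. The use of strand in counting is not given in the sources used here, so reads of these overlaps cannot be told apart.

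**Figure D2:**
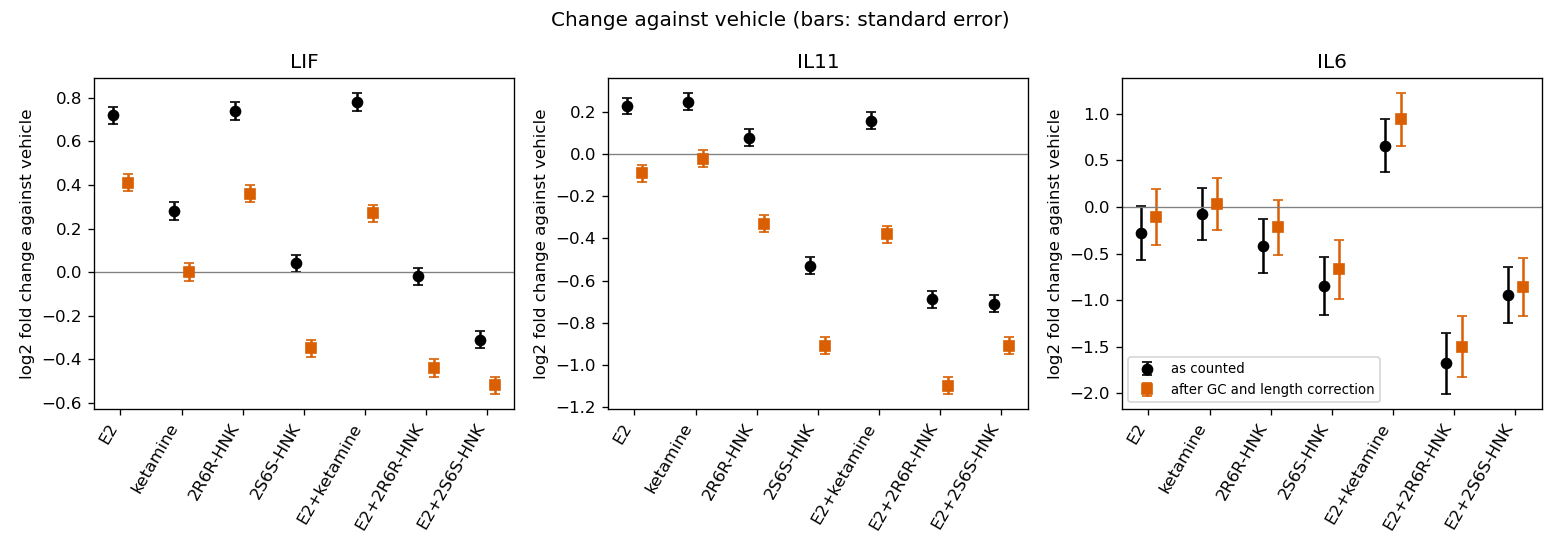
Log2 fold change of LIF, IL11 and IL6 against vehicle (y axis) in the 7 treatments (x axis), as counted (circles) and after correction for GC content and exon length (squares), with bars of 1 standard error. The correction lowers every value of LIF and IL11 and turns those of IL11 in E2, ketamine, 2R6R-HNK and E2+ketamine from above to below 0, while IL6 moves up by less.

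The IL-1 genes were close to the limit of detection. IL1B and IL1A are neighbours on chromosome 2 (chr2:113587328-113594393 and chr2:113531502-113542070, both minus strand) and encode the IL-1 forms that share a receptor. IL1B had 8 and 6 counts in vehicle, 13 and 8 in E2, 29 and 26 in ketamine, 9 and 8 in (2R,6R)-HNK and 4 and 0 in (2S,6S)-HNK. With E2 it had 8 and 12 counts in ketamine, 24 and 14 in (2R,6R)-HNK and 2 and 14 in (2S,6S)-HNK. The ketamine libraries had the most counts of all 16, although scaled to library size replicate 1 of E2 with (2R,6R)-HNK, at 0.322 CPM, lay between them, at 0.339 and 0.313 CPM. The log2 fold change of IL1B in ketamine against vehicle was 1.48 (SE 0.66) and just missed the threshold (adjusted p = 0.0506, edgeR), but it passed with DESeq2's size factors (adjusted p = 0.046), upper-quartile scaling (0.0363), a fit of only these groups (0.0172) and GC correction (0.0353). It did not pass with DESeq2 (0.121) or with no filter (0.082).

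IL1A was highest in vehicle. It had 17 and 9 counts in vehicle, 12 and 3 in E2, 10 and 12 in ketamine, 6 and 7 in (2R,6R)-HNK and 2 and 3 in (2S,6S)-HNK. With E2 it had 4 and 2 counts in ketamine, 6 and 2 in (2R,6R)-HNK and 6 and 2 in (2S,6S)-HNK. The edgeR test called it lower than vehicle in (2S,6S)-HNK (-2.24, SE 0.88, adjusted p = 0.0214), in E2 with ketamine (-2.04, adjusted p = 0.0284), in E2 with (2R,6R)-HNK (-1.94, adjusted p = 0.0273) and in E2 with (2S,6S)-HNK (-1.95, adjusted p = 0.0316). None of these 4 calls held with DESeq2, where adjusted p was 0.0663 to 0.0927, or after GC correction, where it was 0.0784 to 0.191, and each was lost in 2 or 3 of 16 fits that left out 1 library.

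Of the chemokines among the members, CXCL1 alone passed the edgeR test against vehicle in the fit of all groups. CXCL1, which attracts neutrophils through CXCR2, had 11 and 6 counts in vehicle, 12 and 11 in E2, 11 and 19 in ketamine, 18 and 23 in (2R,6R)-HNK and 2 and 9 in (2S,6S)-HNK. With E2 it had 20 and 25 counts in ketamine, 18 and 4 in (2R,6R)-HNK and 10 and 6 in (2S,6S)-HNK. It was called higher in E2 with ketamine than in vehicle (1.43, SE 0.63, adjusted p = 0.0381, edgeR), but not by DESeq2 (adjusted p = 0.0821) and not in 10 of 16 fits that left out 1 library. CXCL2 ranged from 2 to 21 counts, with both ends of the vehicle pair, 17 and 2, nearly as far apart. CXCL3 ranged from 2 to 14 counts and CCL2 from 12 to 44, with the highest CCL2 count in ketamine replicate 1. None of CXCL2, CXCL3 and CCL2 passed edgeR's test in any of the 22 comparisons in the fit of all groups, or that of DESeq2. CXCL2 against E2 was at 1.72 (SE 0.77, unadjusted p = 0.0313, adjusted p = 0.0606) in E2 with ketamine and 1.56 (SE 0.76, unadjusted p = 0.0465, adjusted p = 0.0851) in E2 with (2R,6R)-HNK, the only values of these 3 genes with an unadjusted edgeR p under 0.05. A fit of only the compared groups called CXCL2 higher in E2 with ketamine than in E2 (1.71, SE 0.74, adjusted p = 0.0494, edgeR). CXCL2 also hung on the vehicle pair: in edgeR it was called higher in E2 with ketamine (2.65, adjusted p = 0.034) and in E2 with (2R,6R)-HNK (2.50, adjusted p = 0.0481) without vehicle replicate 1, and lower in E2 (-2.05, adjusted p = 0.0359) without vehicle replicate 2.

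**Figure D3:**
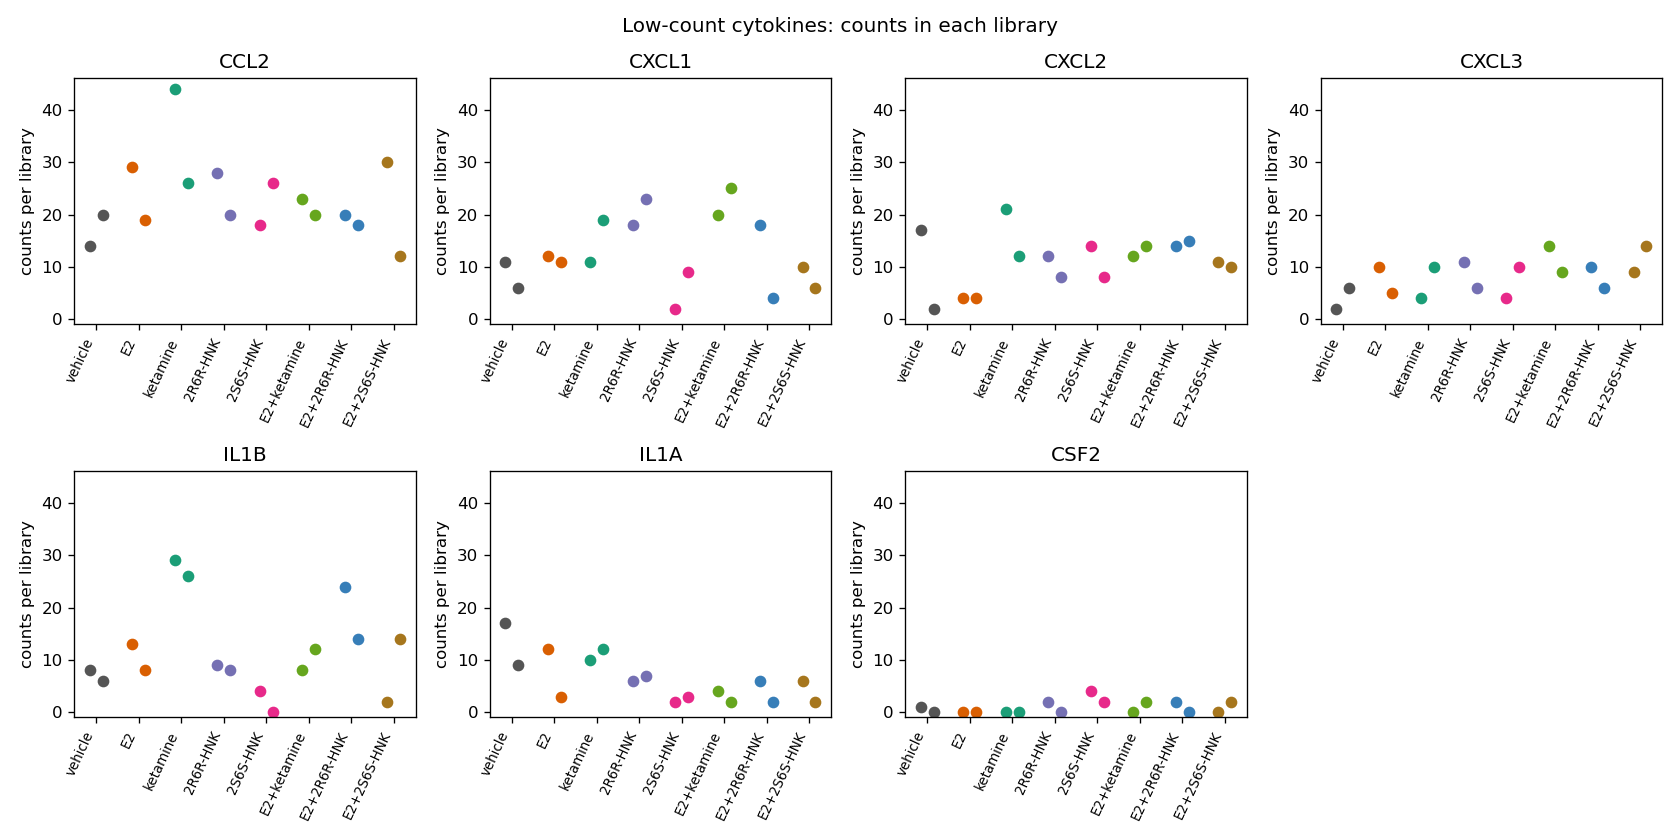
Unscaled counts per library (y axis, the same for all panels) of the 7 members with few counts, in the 2 libraries of each condition (x axis; each point is a library). CCL2 reaches 44 counts, IL1B is highest in ketamine with 29 and 26, and CSF2 never exceeds 4.

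Each treatment changed between 1 and 5 members against vehicle. Of the 9 members tested, E2 changed 2 (LIF and IL11) against a background of 62.5% of all genes tested, ketamine the same 2 against 59.3%, and (2R,6R)-HNK 1 (LIF) against 66.6%. (2S,6S)-HNK changed 3 (IL6, IL1A and IL11) against 67.9%. E2 with ketamine changed 5 (IL6, IL1A, CXCL1, LIF and IL11) against 71.7%, E2 with (2R,6R)-HNK 3 (IL6, IL1A and IL11) against 69.7%, and E2 with (2S,6S)-HNK 4 (these and LIF) against 59.7%. In each treatment the share of members called stood below this background, but the difference was not tested. IL1B, IL1A, CXCL1, CXCL2 and CXCL3 had 10 or more counts in only 7, 4, 11, 11 and 7 of 16 libraries. Among IL6, CCL2, LIF and IL11, which had 10 or more in all 16, E2 with ketamine and E2 with (2S,6S)-HNK changed all but CCL2. In a fit of only the genes with 10 or more counts in every library, these treatments changed 80.3% and 66.5% of all genes. The other treatments changed fewer of them.

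The drugs differed in what they did to the cytokines in the presence of E2. Compared with E2 alone, E2 with ketamine changed 1 member, IL6, which was higher by 0.94 (SE 0.28, adjusted p = 0.00441) on the log2 scale, against a background of 50.3% of genes. LIF and IL11 were at 0.06 (95% interval -0.02 to 0.14) and -0.07 (-0.16 to 0.01), and GC-corrected both passed the test below E2, at -0.14 (adjusted p = 0.00111) and -0.30 (adjusted p = 5.91e-10). E2 with (2R,6R)-HNK changed 3 members, against a background of 50.5%, and lowered IL6 (-1.39, adjusted p = 0.000454), LIF (-0.74, adjusted p = 1.15e-21) and IL11 (-0.92, adjusted p = 6.37e-24). E2 with (2S,6S)-HNK lowered LIF (-1.03, adjusted p = 2.75e-27) and IL11 (-0.94, adjusted p = 1.54e-24), 2 members against 55.1%, while IL6 stood at -0.67 (adjusted p = 0.0659). The GC-corrected falls of LIF and IL11 were of like size, from -0.82 to -1.02, all in the edgeR fit.

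The effect of adding E2 to a drug went in opposite directions for LIF. E2 raised LIF in ketamine by 0.50 (adjusted p = 2.27e-16), from 61.6 ± 1.26 to 87.3 ± 0.694 CPM (SD, n = 2), and lowered it in (2R,6R)-HNK (-0.76, adjusted p = 4.09e-22), from 85.2 ± 1.39 to 50.3 ± 2.18 CPM, by edgeR's test. In (2S,6S)-HNK it lowered LIF too (-0.35, adjusted p = 4.19e-10). GC-corrected, these values of LIF were 0.27, -0.80 and -0.17, all still called. IL6 too rose in ketamine, by 0.74 (adjusted p = 0.0158), and fell in (2R,6R)-HNK (-1.25, adjusted p = 0.00165), but stood at -0.10 (adjusted p = 0.832) in (2S,6S)-HNK. The IL6 call in ketamine was lost without ketamine replicate 2 (adjusted p = 0.116) or E2 with ketamine replicate 2 (adjusted p = 0.096). IL11 fell by 0.77 (adjusted p = 7.62e-21) in (2R,6R)-HNK and by 0.18 (adjusted p = 0.000679) in (2S,6S)-HNK, the latter at 0.00 GC-corrected and lost without (2S,6S)-HNK replicate 2 (-0.12, adjusted p = 0.0589), and in ketamine it was lower at -0.09 (adjusted p = 0.0465), a call lost with DESeq2 (adjusted p = 0.213), without ketamine replicate 1 (-0.04, adjusted p = 0.574), without E2 with ketamine replicate 1 (-0.07, adjusted p = 0.281) and without either (2R,6R)-HNK library (adjusted p = 0.0506). It was -0.15 without ketamine replicate 2 and -0.36 (adjusted p = 1.95e-13) GC-corrected. A replicate block also ended the call of IL11 in ketamine as counted. These comparisons changed 3 members in ketamine, against 57.5% of all genes, 3 in (2R,6R)-HNK, against 47.9%, and 2 in (2S,6S)-HNK, against 51.3%.

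**Figure D4:**
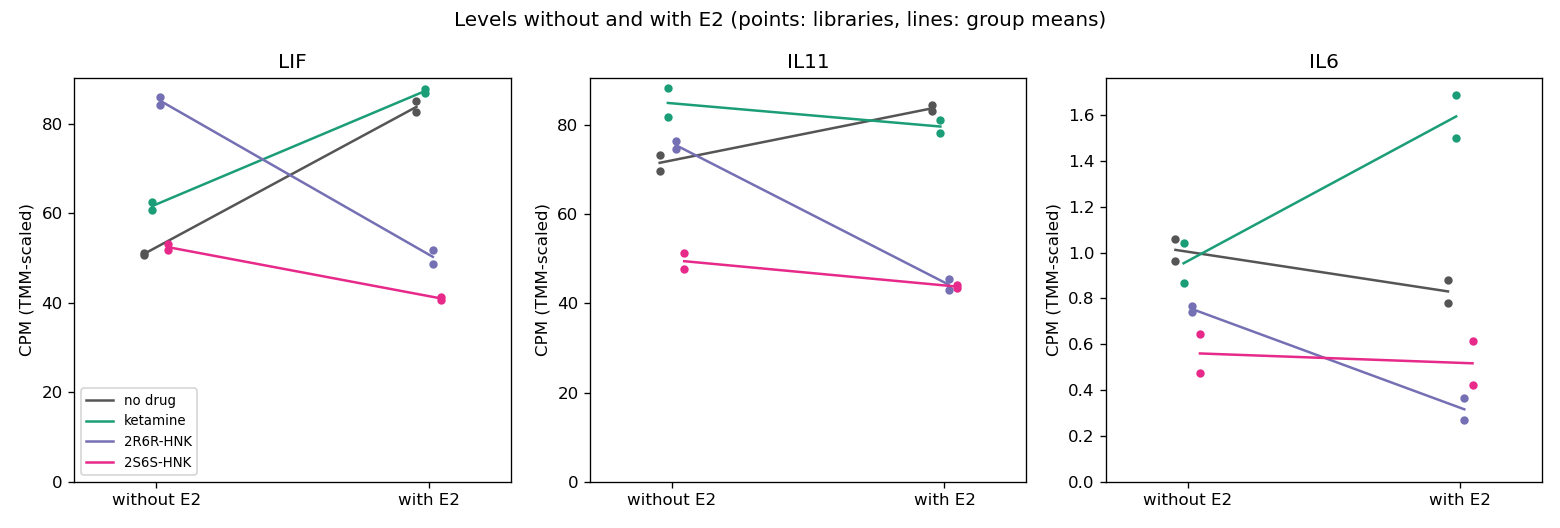
Levels of LIF, IL11 and IL6 in CPM, scaled by TMM (y axis, from 0), without and with E2 (x axis) for no drug, ketamine, 2R6R-HNK and 2S6S-HNK; points are libraries and lines join group means. For LIF the lines of no drug and ketamine go up and those of both HNKs go down, and that of 2R6R-HNK falls from 85.2 to 50.3 CPM.

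The interaction terms compare the effect of E2 with and without a drug, and for both HNKs those of LIF and IL11 passed the test. On the log2 scale the term for (2R,6R)-HNK was -1.48 (95% interval -1.59 to -1.37, adjusted p = 1.32e-27) for LIF and -1.0 (-1.12 to -0.88, adjusted p = 7.54e-20) for IL11, in the edgeR fit. For (2S,6S)-HNK it was -1.07 (-1.19 to -0.96, adjusted p = 4.64e-22) for LIF and -0.41 (-0.53 to -0.28, adjusted p = 7.34e-08) for IL11. For ketamine it was -0.22 (adjusted p = 0.0013) for LIF, -0.32 (adjusted p = 1.18e-05) for IL11 and 1.02 (0.22 to 1.82, adjusted p = 0.0378) for IL6. GC-corrected, the LIF terms were -1.21, -0.58 and -0.14 and the IL11 terms -0.69, 0.09 and -0.28, in the order of the drugs given here, so the IL11 term for (2S,6S)-HNK turned (adjusted p = 0.234). The IL6 term for ketamine was 1.02 with DESeq2 too, with adjusted p = 0.0692. The IL6 terms for (2R,6R)-HNK and (2S,6S)-HNK were not called in the edgeR fit. When single libraries were left out, they ran from -1.2 to -0.77 and from -0.14 to 0.42. The first range includes values as large as the called ketamine term of 1.02, with the other sign. For (2R,6R)-HNK the lack of a call therefore does not show that the IL6 term is absent. The terms for (2R,6R)-HNK, (2S,6S)-HNK and ketamine were called for 2, 2 and 3 members, against backgrounds of 56.6%, 65.1% and 37.5% of genes.

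The 3 drugs, all at 400 nM for 24 h, were compared in 6 pairs. The mirror-image HNKs differed when given alone: LIF was higher in (2R,6R)-HNK than in (2S,6S)-HNK by 0.70 (95% interval 0.62 to 0.78, adjusted p = 2.51e-20) and IL11 by 0.61 (0.52 to 0.70, adjusted p = 9.64e-17), by edgeR's test, and GC correction left 0.71 and 0.58. CXCL1 was higher by 1.68 (SE 0.69, adjusted p = 0.0434), a call that DESeq2 did not make (adjusted p = 0.0776) and that 12 of 16 fits without 1 library lost. Its value ran from 1.02 to 3.03 in these 16 fits. IL6 differed by 0.42 (-0.22 to 1.07, adjusted p = 0.307), an interval that includes both no difference and one as large as that of LIF. These are 3 members called, against 43.5% of genes.

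With E2 present, LIF alone was called between the HNKs as counted, in the fit of all libraries. IL11 differed by 0.02 (95% interval -0.07 to 0.11, adjusted p = 0.784) as counted and by -0.19 (adjusted p = 9.60e-05) GC-corrected. LIF was higher in E2 with (2R,6R)-HNK by 0.29 (0.21 to 0.38, adjusted p = 2.02e-08), the 1 member called against 54.0% of genes, and by 0.09 (adjusted p = 0.0839) GC-corrected. IL6 stood at -0.73 (-1.43 to -0.03, adjusted p = 0.075), and ran from -0.96 to -0.41 when single libraries were left out. IL1B stood at 1.18 (SE 0.67, adjusted p = 0.136) with all libraries. Without replicate 2 of E2 with (2S,6S)-HNK it was 3.31. All are from the edgeR fit.

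Ketamine, which lacks the hydroxyl group of the HNKs and has an N-methyl group that they lack, differed from both HNKs. Without E2, LIF was lower in ketamine than in (2R,6R)-HNK, with a difference of -0.47 (95% interval -0.54 to -0.39), and IL11 higher by 0.17 (0.09 to 0.25), 2 members called against 45.4% of genes, with adjusted p of 8.50e-15 and 0.000377 in edgeR; the IL11 call was lost without ketamine replicate 1 (adjusted p = 0.0605). GC-corrected, the differences were -0.36 and 0.31, both still called. IL1B stood at 1.35 (SE 0.64, adjusted p = 0.0825, edgeR) there, and passed in a fit of only these groups (0.0321) and with halved counts (0.049). Against (2S,6S)-HNK, ketamine had more IL11 (0.78, adjusted p = 5.60e-21), LIF (0.23, adjusted p = 2.63e-06), IL1B (3.14, SE 0.84, adjusted p = 0.00168) and IL6 (0.76, adjusted p = 0.0365), 4 members against 46.1%. The IL1B value rests on 29 and 26 counts against 4 and 0, and ran from 2.13 to 7.47 when single libraries were left out. Without the library at 0, (2S,6S)-HNK replicate 2, it was 2.13 (adjusted p = 0.0786), and DESeq2 gave adjusted p = 0.00592 with all libraries. The IL6 call was lost with DESeq2 (adjusted p = 0.0618), after GC correction (0.0657), without ketamine replicate 1 (0.183) and without (2S,6S)-HNK replicate 1 (0.225).

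With E2, ketamine stood above both HNKs in all 3 gp130 cytokines. IL6 was higher than in E2 with (2R,6R)-HNK by 2.33 (95% interval 1.70 to 2.97, adjusted p = 1.20e-08), IL11 by 0.85 (0.76 to 0.94) and LIF by 0.80 (0.72 to 0.87), which is 3 members called against 52.0% of genes. CXCL1 stood at 1.34 (SE 0.60, adjusted p = 0.0569, edgeR) there, and passed GC-corrected (adjusted p = 0.0463), in a fit of only these groups (0.0313), with halved counts (0.0303) and without E2 with (2R,6R)-HNK replicate 1 (2.73, adjusted p = 0.0141). Against E2 with (2S,6S)-HNK the differences were 1.61 (1.02 to 2.19) for IL6, 0.87 (0.78 to 0.95) for IL11 and 1.09 (1.01 to 1.17) for LIF, and CXCL1 was higher by 1.79 (SE 0.63, adjusted p = 0.0111, edgeR), in all 4 members against 66.8%. The CXCL1 call was lost without replicate 2 of E2 with ketamine (adjusted p = 0.0793) or of E2 with (2S,6S)-HNK (adjusted p = 0.0781). GC-corrected, the differences of the 3 gp130 cytokines were 2.44, 0.72 and 0.71 for the first pair and 1.79, 0.53 and 0.79 for the second, all still called.

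The genes whose pattern over the 16 libraries was most like that of LIF were FHOD1, MXRA8 and SLC7A5, with root mean square differences of 0.078, 0.091 and 0.092 in centred log2 CPM, among 12749 genes with a mean of at least 1 CPM. Those most like IL11 were NPTX1 (0.077), VDR (0.105) and GPRC5A (0.117). LIF and IL11 themselves each had a spread of 0.39 (SD of log2 CPM). For IL6, whose spread was 0.66, the nearest genes were ROBO4 (0.290), the chemokine CCL26 (0.332) and KRT81 (0.366). For CCL2 they were ROM1, EFCAB4B and SMIM6, at 0.224 to 0.254 against a spread of 0.33. For IL1B (PCDHB13, P2RX6 and PAG1), IL1A (STXBP4, ADAMTS3 and SNORD17), CXCL1 (CCDC183-AS1, TREX2 and OVCA2), CXCL2 (CES4A, GGT1 and CAMK2B) and CXCL3 (ADAP1, PLEKHF1 and CCDC107) the nearest genes were 0.383 to 0.759 away.

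The receptors of the gp130 cytokines moved in different directions. Of 13 receptor genes of the members in the table, 8 passed the filter, and against vehicle 1 or 2 of them rose and 2 to 5 fell in the 7 treatments, where 59.3% to 71.7% of all genes tested were called (38% to 59.5% GC-corrected). IL6ST, the shared gp130 chain, stood at 137 CPM in vehicle and fell in all 7, with log2 fold changes of -0.49 to -1.0, and of -0.09 to -0.24 GC-corrected, each still called by edgeR. LIFR, at 26.3 CPM in vehicle, fell in all 7, from -0.21 in E2 with (2S,6S)-HNK to -1.15 in E2 with ketamine, but GC-corrected it was called lower only in (2R,6R)-HNK (-0.34), (2S,6S)-HNK (-0.27), E2 with ketamine (-0.40) and E2 with (2R,6R)-HNK (-0.22). IL11RA, at 16.2 CPM, rose in all 7 by 0.51 to 0.89, and by 0.31 to 0.56 GC-corrected. CSF2RB, the beta chain of the GM-CSF receptor, fell in (2R,6R)-HNK (-0.27), (2S,6S)-HNK (-0.59) and E2 with either HNK (-0.64 and -0.52) and rose in ketamine (0.17, adjusted p = 0.0242). GC-corrected, it was called lower in the 6 treatments other than ketamine, with values of -0.29 to -1.03. IL6R, the chain that binds IL6, had values of -0.32 to 0.18 and was not called as counted in any treatment, but was lower in E2 with ketamine GC-corrected (-0.47, adjusted p = 0.0103). After the correction 1 or 2 of the 8 receptors were higher and 1 to 4 lower. The receptors CXCR1, CXCR2 and CCR2 of the chemokines had at most 8 counts in a library.

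NF-kB, the main inducer of these cytokines in inflammation, showed no common direction among its 17 subunits and inhibitors, all tested. The list mixes genes that activate and genes that inhibit NF-kB, so their RNA does not show its activity, which was not measured. Between 5 and 9 rose and between 3 and 7 fell in each treatment against vehicle, with medians of 0.03 to 0.42 beside 0.00 to -0.06 for all genes, of which 59.3% to 71.7% were called. GC-corrected, between 1 and 6 were higher and between 2 and 9 lower, with medians of -0.15 to 0.05 beside -0.01 to -0.05 for all genes, of which 38% to 59.5% were called. NFKBIA, the inhibitor that NF-kB itself induces, rose by 0.71 (SE 0.07, adjusted p = 1.22e-13) in E2 with ketamine, and by 0.18 in E2 and 0.25 in (2S,6S)-HNK, and was lower in E2 with (2S,6S)-HNK (-0.20, adjusted p = 0.0135). GC-corrected, only the rise in E2 with ketamine was still called (0.37, adjusted p = 1.94e-06), and it was lower in (2R,6R)-HNK (-0.20), E2 with (2R,6R)-HNK (-0.21) and E2 with (2S,6S)-HNK (-0.33). CHUK, a kinase that activates NF-kB, fell in all 7, with values of -0.44 to -1.04, and of -0.14 to -0.31 GC-corrected. BCL3, a cofactor of NF-kB, rose in all 7 by 0.51 to 0.97, but kept the call after GC correction in 5. RELB, a subunit, rose in 6 treatments by 0.38 to 1.04, and after the correction in E2 with (2R,6R)-HNK alone (0.40). The subunit REL fell in 6, with values of -0.32 to -0.93, and in none after the correction. All are edgeR calls.

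Of 16 genes that process or inhibit IL-1 and its relatives, 10 were tested, and 4 or 5 rose and 1 to 3 fell in each treatment, or 2 to 5 and 1 to 3 GC-corrected, against the same backgrounds of 59.3% to 71.7% and 38% to 59.5% of all genes. GSDMD, the pore through which mature IL1B leaves the cell, rose in all 7 by 0.42 to 1.09, and GC-corrected by 0.15 to 0.31 in 6 of them. SIGIRR, an inhibitory receptor of the IL-1 family, rose in all 7 by 0.61 to 1.14, and after GC correction in 5. IL18BP, which neutralises IL18, rose most in (2S,6S)-HNK (0.93), E2 with (2R,6R)-HNK (1.06) and E2 with (2S,6S)-HNK (0.96), the 3 conditions with low IL11, and was at 0.58, 0.67 and 0.77 there GC-corrected. PYCARD, the inflammasome adaptor, at 0.373 CPM in vehicle, rose in 5 treatments by 0.94 to 1.31, and in none after GC correction. IL1RN, the IL-1 receptor antagonist, had 0 counts in every library, which allows up to 0.0547 CPM in the smallest.

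Among 9 genes that control the decay of cytokine mRNA, up to 5 rose and 3 to 7 fell, or up to 2 and 2 to 7 GC-corrected, beside 59.3% to 71.7% and 38% to 59.5% of all genes called. RC3H1 (Roquin), which promotes that decay, fell in all 7 treatments, with values of -0.38 to -1.08, and after GC correction in (2S,6S)-HNK (-0.34), E2 with (2R,6R)-HNK (-0.52) and E2 with (2S,6S)-HNK (-0.57). TIA1, which holds back cytokine translation, fell in all 7, with values of -0.33 to -0.98, and GC-corrected was called lower in 3, at -0.13 to -0.17. HNRNPD (AUF1) fell in all 7, with values of -0.34 to -0.57, but was higher than vehicle after GC correction in E2 (0.12), (2R,6R)-HNK (0.15) and E2 with ketamine (0.13), and still lower in E2 with (2S,6S)-HNK (-0.27), ketamine (-0.07) and E2 with (2R,6R)-HNK (-0.05). ZFP36, the decay factor tristetraprolin, rose by 0.26 in E2 and by 0.58 in E2 with ketamine, calls that GC correction removed. GC-corrected, it was lower in E2 with (2R,6R)-HNK (-0.29) and E2 with (2S,6S)-HNK (-0.32).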

How the data were processed

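HMC3 cells were sequenced in 16 libraries, 2 for each of 8 conditions, grouped by the sample labels. Libraries were made with the Ovation RNA-seq kit and read as 100 bp pairs. The submitters' processing notes name TopHat2 2.0.14, Bowtie2 2.2.6 and featureCounts 1.4.6 with hg19, the study's methods name earlier versions of both aligners, and they state that the authors counted uniquely mapped, non-discordant pairs on iGenomes gene models. The authors deposited these counts unnormalized, as whole numbers for each gene. Strand use and the lane of each library are not given in the sources used here. Totals were 55300614 to 81646165 counts, and replicate variance was 2.73 to 5.13 times that of sampling.

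Counts were analysed in R 4.3.3 with edgeR 4.0.16 and limma 3.58.1. Genes were filtered with filterByExpr (16004 of 25370 kept; CSF2 did not pass) and scaled by TMM, and all 22 comparisons were contrasts of 1 quasi-likelihood fit of 8 group means. Log2 fold changes have no shrinkage. P-values were adjusted by Benjamini-Hochberg over all genes within each comparison, and a gene was called at an adjusted p under 0.05. With 2 against 2 libraries an exact two-sided permutation test cannot go below p = 0.333, so none was used. Comparisons that share the vehicle or E2 libraries are not independent. CPM values are TMM-scaled. Tested on counts simulated for ketamine against vehicle over 16004 genes, edgeR recovered 89% of 200 genes changed by 1.5 on the log2 scale, with 10 false calls. These 200 genes were picked at random and had no trend with GC content. In the real comparison 59.3% of genes were called, with such a trend. The simulation therefore does not give the recovery or false calls to be found in these data or for members with few counts.

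The alternatives were DESeq2 1.42.0, its size factors, upper-quartile scaling, no filter, 10 counts in every library, a fit of the compared groups only, replicate numbers as a block, a loess correction of each library for exon GC content and exon length (span 0.5, 96% of genes tested had a value), halved and thinned counts, and each library left out. Halving was tried because 65.8% of counts of 1 to 9 were even; halving does not tell if both mates were counted. Exon positions and lengths come from GENCODE on GRCh37, the assembly of hg19: the current symbol matched for 21539 genes, an older one for 1498 and none for 2333. All 10 members are named throughout, but the bases before the start of 1 member are not reported here. From each other list, named genes are the called ones with the largest changes, at most 4, plus IL6R, IL1RN, NFKBIA, TNF, OSM, IL12B, IL10, TGFB2 and the chemokine receptors, named for their role or level after the values were seen. The members and lists were chosen with earlier results of these data known.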

Additional observations from a re-analysis of the deposited data

Results flagged for a closer look

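The effect of E2 differed with and without a drug, by the interaction term of the edgeR fit, in 7 cases, given here on the log2 scale. For LIF the term was -1.48 with (2R,6R)-HNK, -1.07 with (2S,6S)-HNK and -0.22 with ketamine. For IL11 it was -1.0 with (2R,6R)-HNK, -0.41 with (2S,6S)-HNK, which turned to 0.09 (adjusted p = 0.234) GC-corrected, and -0.32 with ketamine. For IL6 it was 1.02 with ketamine, a call lost with DESeq2 (adjusted p = 0.0692), with upper-quartile scaling (adjusted p = 0.0614) and in 6 of 16 fits that left out 1 library. E2 alone raised LIF from 50.9 ± 0.455 to 83.8 ± 1.68 CPM (SD, n = 2), and with either HNK it lowered LIF. No group had more than 2 libraries, so no library could be compared with the rest of its group.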

How the results depend on the processing

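The correction for GC content and exon length changed the most. With it, alone or together with a replicate block, IL11 turned from above to below vehicle in E2 (-0.09), ketamine (-0.02), (2R,6R)-HNK (-0.33) and E2 with ketamine (-0.38), LIF turned below vehicle in (2S,6S)-HNK (-0.35) and below E2 in E2 with ketamine (-0.14), IL11 in E2 with (2R,6R)-HNK turned below E2 with (2S,6S)-HNK (-0.19), and the IL11 interaction of (2S,6S)-HNK and E2 turned to 0.09. IL11 in E2 with (2S,6S)-HNK against (2S,6S)-HNK came to 0.00. Both versions of this correction called 1 member in E2, 1 in ketamine and 2 in (2R,6R)-HNK against vehicle, 3 in E2 with ketamine against E2, 1 in E2 with (2S,6S)-HNK against (2S,6S)-HNK and 1 in the interaction of (2S,6S)-HNK and E2. Of all genes, the correction alone called 38%, 48.5%, 45.5%, 35.6%, 31.3% and 40.8% in these comparisons. No other alternative turned the direction of a called value.

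For (2R,6R)-HNK against vehicle, 2 members were called with DESeq2, with its size factors, with upper-quartile scaling and with only the compared groups, which also gave 2 in E2 with ketamine against E2; the share of all genes called was 58.6%, 66.9%, 67.3%, 70.4% and, against E2, 52%. For E2 with ketamine against vehicle, 3 were called with DESeq2, with no filter and with 10 counts in every library, which leaves fewer members tested, against 59.1%, 54.3% and 80.3% of all genes. When single libraries were left out, the members called ranged from 2 to 5 there, from 2 to 4 in E2 with (2S,6S)-HNK against vehicle, from 1 to 2 in ketamine against (2R,6R)-HNK, from 1 to 3 between both HNKs with E2 and from 1 to 3 in E2 with (2S,6S)-HNK against (2S,6S)-HNK. In these fits the share of all genes called was 66.1% to 70.2%, 51.6% to 58.8%, 37.3% to 44.7%, 45.8% to 53.1% and 41.4% to 50.4%. A condition left with 1 library was assumed to vary like the others.

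Replicate numbers showed no strong shift shared between conditions: the correlations of replicate differences between conditions ran from -0.0258 to 0.0451 over 28 pairs. Whether libraries with the same number were handled together is not given in the labels, and these values cannot tell. The replicate block alone ended 1 call of 74 values, that of IL11 in E2 with ketamine against ketamine (-0.09, adjusted p = 0.0513, edgeR). DESeq2 ended 9 of 74, and IL1A and CXCL1 made up 6 of them. Where the cause is not given, it was not tested. Low counts limit the results of IL1A, IL1B, CXCL1, CXCL2, CXCL3 and CSF2, and the 2 libraries of each condition limit every result. These limits were not compared with each other.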

Other observations

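Among other cytokines and chemokines, a few rose in most treatments. CX3CL1 (fractalkine), which signals to microglia through CX3CR1, stood at 0.513 CPM in vehicle and was called higher by edgeR in all 7 treatments, by 0.68 in E2 to 1.61 in E2 with ketamine on the log2 scale, and after GC correction in 6, at 0.80 to 1.17. CXCL16, at 7.58 CPM, rose by 0.30 in E2 to 1.12 in E2 with (2R,6R)-HNK, and after GC correction in 6 treatments, at 0.23 to 0.73. Of 20 other chemokine genes in the table, 8 were tested, and 2 or 3 rose and at most 1 fell. This is a smaller share than among all genes, a difference that was not tested. Of those tested, CXCL8, CXCL5, CXCL12, CCL11 and CXCL14 had means of only 0.196 to 0.659 CPM. The part of such low levels in the share was not tested. CXCL8, the neutrophil attractant next in kind to CXCL1, had 0 to 32 counts in a library. It was called lower than vehicle in (2S,6S)-HNK (-1.75, adjusted p = 0.035), E2 with (2R,6R)-HNK (-1.73, adjusted p = 0.0272) and E2 with (2S,6S)-HNK (-2.10, adjusted p = 0.013), and stood at 0.32 (adjusted p = 0.644, edgeR) in E2 with ketamine. CCL11, an eosinophil attractant with 10 to 35 counts, was called lower in E2 (-1.15, adjusted p = 0.0421, edgeR). GC-corrected, up to 3 of the 8 were higher and at most 1 lower, with none called lower in E2, (2S,6S)-HNK or E2 with (2R,6R)-HNK, so the calls of CCL11 and of CXCL8 in these treatments were lost. Of all genes, 59.3% to 71.7% were called in a treatment, and 38% to 59.5% GC-corrected.

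Of 18 other cytokine genes in the table, 10 were tested, and 3 to 6 rose and 1 or 2 fell in a treatment, or 1 to 5 and 1 to 4 GC-corrected, beside the same shares of all genes. TGFB2, at 318 CPM in vehicle, was called lower by edgeR in 6 treatments, all but E2 with (2S,6S)-HNK, with values of -0.21 to -0.67, but GC-corrected it was lower only in E2, ketamine, (2R,6R)-HNK and E2 with ketamine (-0.12 to -0.26) and higher in the other 3 (0.14 to 0.18). IL12A, a subunit of IL-12, was at 1.86 CPM in vehicle and rose in (2S,6S)-HNK (0.57, adjusted p = 0.006), E2 with ketamine (0.47, adjusted p = 0.0224), E2 with (2R,6R)-HNK (0.69, adjusted p = 0.000694) and E2 with (2S,6S)-HNK (0.87, adjusted p = 3.33e-05), by edgeR's test, and GC-corrected by 0.51 to 1.17 in all 7. IL23A, a subunit of IL-23, was at 0.474 CPM and rose by 0.78 to 1.24 in 6 treatments, all but E2, with the call in (2R,6R)-HNK lost after GC correction (0.70, adjusted p = 0.0835, edgeR). TSLP had 0 to 26 counts in a library, with 4 and 4 in vehicle, and was called lower in (2R,6R)-HNK (adjusted p = 0.024, edgeR), where both libraries had 0, and higher in (2S,6S)-HNK (1.82, adjusted p = 0.0491, edgeR), with 17 and 10. TNF, OSM, IL12B and IL10 had at most 4 counts in a library. CSF1, the growth factor of macrophages, rose in 5 treatments, by 0.24 to 0.78, and after GC correction only in E2 with ketamine (0.25, adjusted p = 0.0385), while it was lower in E2 with (2S,6S)-HNK (-0.46, adjusted p = 0.000206, edgeR).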
